A study of Mus musculus with 6 samples.

Results

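Interferon-stimulated genes were examined in aortic smooth muscle cells of mice with and without floxed alleles of the microRNA miR-21. The set is 34 genes given by symbol, and 29 of them had a row in the deposited table of 20199 genes. Oas2, Oas3, Oasl1, Mx1 and Ifi44 had no row and were not analysed here. A minimum on low counts left 25 of the 29 for testing, among 15185 genes tested in all. The 4 that did not pass it were Ddx60, Zbp1, Oas1a and Dhx58, each with at most 29 counts in any library.

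The study holds 3 wild-type libraries and 3 libraries labelled as lacking miR-21, called knockout below. The wild-type genotype is given as WT/mTmG/Myh11ERT2 and the other as miR-21fl/flmTmG/Myh11ERT2, on a C57B6 strain, all from animals 12 weeks of age. Both groups thus carried mTmG, a fluorescent reporter of Cre recombination, and Myh11ERT2, an inducible driver under the smooth muscle myosin promoter, which is active in smooth muscle. The labels do not state if the inducer was given, if animals were pooled or if libraries came from separate animals, so p-values measure the spread between these libraries, which may be technical. Loss of miR-21 itself was not measured in these libraries.

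Interferons are secreted when a cell senses foreign or misplaced nucleic acid. Type I interferon binds the receptor made of Ifnar1 and Ifnar2, the Janus kinases Jak1 and Tyk2 are activated, and a complex that includes Stat2 and Irf9 binds the interferon-stimulated response element (ISRE) in target promoters. Interferon gamma has its own receptor, and many of its targets carry the gamma-activated site (GAS). The targets include sensors of viral RNA, proteins that bind or degrade it, feedback inhibitors and chemokines, and vascular smooth muscle cells can express them at rest and after stimulation.

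The promoters of many members show these elements, and the sequences below are examples. RefSeq promoters (build GRCm38.p6, 250 bases before to 50 after each start) were found for 24 of the 34 genes. The ISRE core searched was GAAA, any 2 bases, then GAAA, on either strand. It occurred in 15 of the 24 genes (62.5%), against 3.99% of all 27025 genes with a promoter. In the lines below capitals mark each core within the stretch shown, including overlapping cores, and TTTC capitals mark a core on the opposite strand.
Isg15, chr4:156200867-156200916, minus strand: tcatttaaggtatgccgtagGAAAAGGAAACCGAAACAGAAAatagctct
Cxcl10, chr5:92349073-92349122, minus strand: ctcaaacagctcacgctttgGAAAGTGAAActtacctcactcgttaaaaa
Bst2, chr8:71537573-71537622, minus strand: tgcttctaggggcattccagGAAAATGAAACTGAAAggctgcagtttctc
Ifit1, chr19:34640765-34640814, plus strand: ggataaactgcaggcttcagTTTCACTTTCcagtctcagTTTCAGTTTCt
Ifit3, chr19:34583353-34583402, plus strand: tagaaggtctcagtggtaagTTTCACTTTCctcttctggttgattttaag
Ifit3b, chr19:34607749-34607798, plus strand: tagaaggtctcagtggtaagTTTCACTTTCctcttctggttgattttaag
Rsad2, chr12:26456543-26456592, minus strand: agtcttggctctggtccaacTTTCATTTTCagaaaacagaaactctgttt
Isg15 held 3 overlapping cores, the first beginning 78 bases before the start of the gene. The core of Cxcl10 began 213 bases before its start and that of Rsad2 120 bases before. Among members not shown, Ifih1 had its only core after its start, and the promoter of Xaf1 held none. Ifit3 and Ifit3b carried the same 50 bases here, and their promoters were 94.2% identical over 274 aligned bases.

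The GAS core TTCNNNGAA, which reads the same on both strands, occurred in 7 of the 24 genes (29.2%), against 9.55% of all genes with a promoter. The 7 were Irf1, Bst2, Ifitm3, Ifit2, Ifi35, Eif2ak2 and Oas1a. Some ISRE and GAS cores overlap each other, as in Bst2. Irf1, the transcription factor gene known for its GAS, is shown with the GAS in capitals; the site began 90 bases before the start.
Irf1, chr11:53769904-53769952, plus strand: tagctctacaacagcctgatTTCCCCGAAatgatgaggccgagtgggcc
These matches are letters in a window and were not measured as binding sites. Among tested members with an ISRE core, 10 of 12 had a lower fitted mean in knockout (median log2 fold change −0.53, range −1.27 to 0.20). Of those whose promoter held no core, 6 of 7 did (median −0.18, range −0.58 to 0.41). Of the 6 without a promoter entry, Mx2, Rtp4, Usp18, Parp9, Parp14 and Ifi27l2a, it was 3 (median −0.08). The difference between these groups was not tested.

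The libraries held from 17123748 to 28610649 counts, and log2 levels of library pairs correlated at 0.961 to 0.986 across genes, which are not independent replicates. All pairs differed by more than counting noise. The 8 smooth muscle markers summed to 42246 to 48608 CPM (a gene's share of the library's counts, scaled with TMM factors) in wild type and 43649 to 44731 CPM in knockout. Markers of macrophages were near the detection limit, with 4 of the 12 listed tested and 11 in the table. Their sum was 5.11 to 11.1 CPM in wild type and 2.73 to 10.8 CPM in knockout. Ptprc, the pan-leukocyte gene, had 0, 0 and 16 counts in wild type and 4, 4 and 9 in knockout (here and below, values of a genotype are listed in the order of replicates 1, 2 and 3). Adgre1, a defining macrophage gene, had 0 counts in 4 of the 6 libraries. Of the 4 tested macrophage genes 2 had a lower and 2 a higher fitted mean in knockout. Cd68 lay at 2.68, 1.32 and 1.30 CPM in wild type and 0.512, 1.12 and 1.14 CPM in knockout, with no overlap (log2 fold change −0.89 ± 0.44). The groups of Lyz2 (−0.70 ± 0.84), Cd14 (0.24 ± 0.37) and Csf1r (0.13 ± 0.72) overlapped. Endothelial markers summed to 75.1 to 82.9 CPM in wild type and 77.4 to 99.2 CPM in knockout. Most of this was Pecam1 (means of 33.2 CPM in wild type and 33.8 in knockout) and Erg (38.5 and 42.2 CPM). Cdh5, Kdr, Emcn and Cldn5 were too low for testing. Fibroblast markers summed to 387 to 499 CPM in wild type and 384 to 523 CPM in knockout, most of it Col15a1 (means of 300 and 321 CPM). By fitted mean 0 tested endothelial genes were lower in knockout and 6 higher, and 3 fibroblast genes were lower and 5 higher. Of the 8 smooth muscle markers 7 were lower and 1 higher, against 50.1% of all genes lower. In 1 of them, Cnn1, the groups did not overlap, against 7.57% of all genes with knockout below. Cnn1 lay at 3698, 3252 and 2828 CPM in wild type and 2512, 2680 and 2647 CPM in knockout (−0.32 ± 0.14). The part of these cell types in the interferon genes was not tested. In bulk RNA fewer cells of a type and less RNA per cell cannot be told apart. Wild-type replicate 1 was the highest or the lowest library for 13 of the members.

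Interferon-stimulated genes were expressed at low to moderate levels. All 29 together took 343 to 445 CPM in wild type and 326 to 346 CPM in knockout. Levels between genes were compared per kilobase of the longest GENCODE vM1 coding transcript, which was found for 28 genes and not for Ifit3b. On that scale Ifitm3, a membrane protein that blocks viral entry, was the highest (151 ± 49.8 CPM per kilobase in wild type and 123 ± 7.27 in knockout, mean ± SD, n = 3). Irf1 followed at 55.1 ± 14.3 and 41.9 ± 14.4, then Ifi35 at 22.3 ± 2.14 and 21.5 ± 1.84 and Bst2 at 24.1 ± 5.77 and 17.1 ± 2.17. Ifi35 and Bst2 did not differ beyond their spread in wild type, while in knockout Bst2 lay below Ifi35. The other 24 lay under 6 CPM per kilobase in both genotypes. The antiviral genes most used as readouts of an interferon response were among the low ones, with Isg15 at 4.27 ± 0.521 and 2.39 ± 0.434, Ifit1 at 0.540 ± 0.253 and 0.368 ± 0.0747 and Rsad2 at 0.299 ± 0.234 and 0.217 ± 0.0525.

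**Figure D1:**
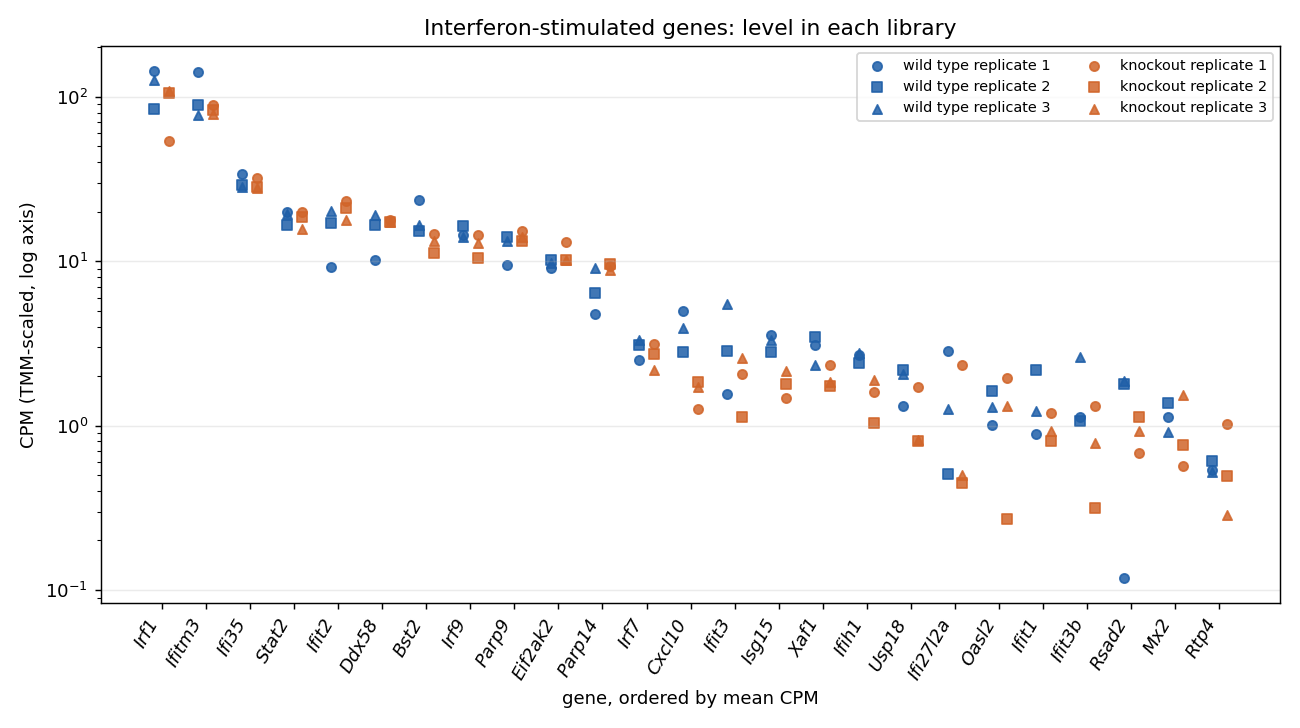
Level of each of the 25 tested interferon-stimulated genes in the 6 libraries, in TMM-scaled CPM on a log axis; blue symbols are wild-type and orange symbols knockout libraries, and the symbol shape gives the replicate. Cxcl10, Isg15, Xaf1, Ifih1 and Bst2 are the genes whose blue and orange symbols do not overlap, and Rsad2 in wild-type replicate 1 is the lowest symbol, at 0.119 CPM.

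None of the 25 tested members passed the test between genotypes. In edgeR's quasi-likelihood test 0 of 25 had an adjusted p under 0.05, as did 0 of 15185 genes (0% called), and the smallest adjusted p of a member was 0.507. DESeq2 also called 0 members, while it called 69 genes (0.454%), and limma voom called 0. At an unadjusted p under 0.05, edgeR listed 4 of the 25 as lower in knockout, against 3.44% of all genes, and 0 as higher, against 2.85%. Scaled by library totals the members' counts were again 4 and 0, while the shares of all genes were 2.48% and 4.23%. At that level DESeq2 listed 4 members as lower and 0 as higher, and 962 of all genes in either direction. With limma voom it was 5 members lower and 0 higher, and 990 of all genes in either direction. By fitted mean, 19 of 25 were lower in knockout, against 50.1% of all genes. The median log2 fold change (knockout minus wild type, so negative where knockout is lower) was −0.29, against −0.00078 over all genes. In 5 members every knockout library lay below every wild-type library, against 7.57% of all genes, and in 0 tested members the reverse held, against 6.95%. The members were chosen with earlier results of these data known, so these counts are a description.

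**Figure D2:**
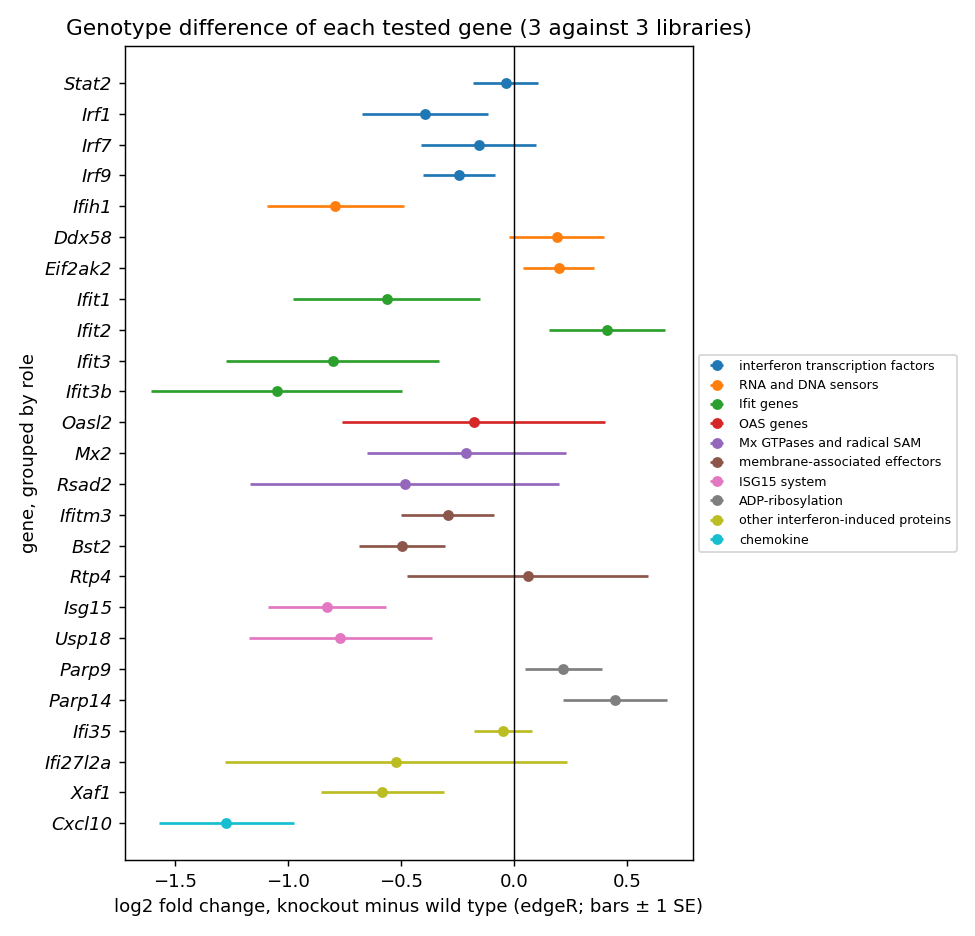
Log2 fold change of each tested gene, knockout minus wild type, with bars of ± 1 SE from edgeR, coloured by role (3 against 3 libraries). Most points lie left of 0, from −1.27 for Cxcl10 to 0.45 for Parp14, and the median SE is 0.27.

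Cxcl10, a chemokine that draws T cells through the receptor Cxcr3, had the largest fold change of the set. It lay at 4.99, 2.80 and 3.92 CPM in the wild-type libraries and at 1.25, 1.84 and 1.71 CPM in the knockout libraries. Every knockout library was below every wild-type library. The log2 fold change was −1.27 ± 0.30 (SE; edgeR unadjusted p = 0.00214, adjusted p = 0.507), and DESeq2 gave an adjusted p of 0.0508. Leaving out any 1 of the 6 libraries kept the value between −1.45 and −1.06 with an unadjusted p under 0.05.

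Isg15 and Usp18 were also lower in knockout by their fitted means. Isg15 encodes a ubiquitin-like protein that is joined to other proteins after interferon exposure. It lay at 3.57, 2.80 and 3.33 CPM in wild type and 1.48, 1.80 and 2.14 CPM in knockout. The groups did not overlap, with a log2 fold change of −0.83 ± 0.26 (edgeR unadjusted p = 0.0112, adjusted p = 0.709), and it too had an unadjusted p under 0.05 with any 1 library left out. Usp18, the protease that removes Isg15 and restrains the type I receptor, lay at 1.31, 2.19 and 2.07 CPM in wild type and 1.71, 0.808 and 0.819 CPM in knockout. Its groups overlapped, since knockout replicate 1 was above wild-type replicate 1. The log2 fold change was −0.77 ± 0.40, and ran from −1.19 without knockout replicate 1 to −0.58 without knockout replicate 3.

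Sensors of nucleic acid did not move together. Ifih1, which encodes MDA5, a sensor of long double-stranded RNA, lay at 2.68, 2.39 and 2.77 CPM in wild type and 1.59, 1.03 and 1.89 CPM in knockout. The groups did not overlap (log2 fold change −0.79 ± 0.30, edgeR unadjusted p = 0.0279, adjusted p = 0.775). Ddx58, which encodes RIG-I, a sensor of RNA with a 5′ triphosphate, lay at 10.2, 16.6 and 19.0 CPM in wild type and 17.9, 17.2 and 17.3 CPM in knockout. Its value of 0.19 ± 0.21 turned to −0.03 without wild-type replicate 1, the lowest library, and was 0.38 without wild-type replicate 3. Eif2ak2, the RNA-activated kinase PKR that halts translation, was at 9.65 ± 0.517 CPM in wild type and 11.1 ± 1.63 in knockout (0.20 ± 0.16, and 0.07 without knockout replicate 1). Dhx58, the regulator LGP2, had 6 to 13 counts in wild type and 8, 8 and 29 in knockout. Zbp1, a sensor of Z-form nucleic acid, had 0 to 6 counts per library and Ddx60 had 2 to 4, too few to compare.

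The Ifit genes, whose proteins bind viral RNA ends and block their translation, lie in a cluster on chromosome 19 between 34550694 (the start of Ifit2) and 34650009 (the end of Ifit1) on mm10. Ifit3 lay at 1.55, 2.85 and 5.50 CPM in wild type and 2.05, 1.12 and 2.56 CPM in knockout. Ifit3b lay at 1.13, 1.07 and 2.62 CPM in wild type and 1.31, 0.314 and 0.783 CPM in knockout. For both genes wild-type replicate 3 was the highest library, knockout replicate 2 was the lowest, and the groups overlapped. The log2 fold changes were −0.80 ± 0.47 and −1.05 ± 0.56. Without wild-type replicate 3 they were −0.20 and −0.47, and without knockout replicate 2 they were −0.53 and −0.67. Without knockout replicate 1 the value of Ifit3b was −1.54. The counts of this pair were fractional before rounding and no Ifit3b transcript was found to compare, so the split of reads between them is uncertain. Their summed counts, an alternative added after the data were seen, gave −0.87 ± 0.45 (edgeR adjusted p = 0.779).

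Ifit2 had the opposite sign to its neighbours. It lay at 9.16, 16.98 and 20.2 CPM in wild type and 23.2, 21.1 and 17.8 CPM in knockout, with wild-type replicate 1 far below the rest (0.41 ± 0.26, 0.15 without that library and 0.65 without wild-type replicate 3). Ifit1 had 15 to 43 counts in wild type and 18 to 26 in knockout, and overlapped (−0.56 ± 0.41, and −0.13 without wild-type replicate 2). Rsad2, the gene of viperin, which makes a chain-terminating nucleotide, had 2, 35 and 53 counts in wild type and 12, 25 and 26 in knockout (−0.48 ± 0.68). Its value ran from −0.98 without wild-type replicate 1 to −0.08 without wild-type replicate 3.

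The 2′,5′-oligoadenylate synthetases, which activate the ribonuclease RNase L, and the Mx GTPases, which trap viral particles, were low where they had a row (Oas1a, Oasl2 and Mx2). Of the 5 Oas and Oasl genes 1 was tested. That was Oasl2, at 1.31 ± 0.309 CPM in wild type and 1.17 ± 0.842 in knockout, where knockout replicate 2 had 6 counts and the other knockout libraries 34 and 37 (−0.18 ± 0.58, turning to 0.29 without knockout replicate 2). Oas1a had 0, 0 and 1 counts in wild type and 3, 4 and 2 in knockout, under the minimum for testing. Mx2 was at 1.14 ± 0.231 and 0.954 ± 0.508 CPM (−0.21 ± 0.44, from −0.75 without knockout replicate 3 to 0.03 without knockout replicate 1).

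Among membrane effectors, Bst2 encodes tetherin, which holds budding virus on the cell surface. It lay at 23.4, 15.2 and 16.6 CPM in wild type and 14.6, 11.3 and 13.2 CPM in knockout, without overlap (−0.50 ± 0.19, edgeR unadjusted p = 0.0285, adjusted p = 0.775). Wild-type replicate 1 was the highest library, and without it the log2 fold change was −0.29. Scaled by library totals instead of TMM, the groups of Bst2 overlapped. Ifitm3 lay at 140.7, 88.6 and 77.5 CPM in wild type and 88.5, 82.9 and 78.6 CPM in knockout. The other 5 libraries overlapped closely, and its value of −0.29 ± 0.21 was 0.0056 without wild-type replicate 1 and −0.46 without wild-type replicate 3. Rtp4, a chaperone of membrane receptors that also binds viral RNA, had 8 to 18 counts per library (0.06 ± 0.53, and −0.52 without knockout replicate 1).

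The transcription factors of the pathway overlapped between the genotypes. Stat2 was at 18.5 ± 1.69 CPM in wild type and 18.1 ± 2.15 in knockout (−0.04 ± 0.14). Its sign turned when scaled by library totals (0.0015) and with either wild-type replicate 1 (0.0065) or knockout replicate 3 (0.06) left out. Irf9, its partner, lay at 14.4, 16.4 and 13.9 CPM in wild type and 14.5, 10.5 and 12.8 CPM in knockout, with overlap (−0.24 ± 0.16, and −0.13 without knockout replicate 2). Irf7, which amplifies the type I response, was at 2.96 ± 0.415 and 2.68 ± 0.482 CPM (−0.16 ± 0.26, from −0.28 without knockout replicate 1 to −0.02 without knockout replicate 3). Irf1, which responds to interferon gamma and to NF-kB signals, lay at 143, 83.6 and 127 CPM in wild type and 54.0, 105.7 and 109 CPM in knockout. Its groups overlapped, knockout replicate 1 was the lowest library, and the value of −0.39 ± 0.28 was −0.13 without it and −0.23 without wild-type replicate 1. Socs3, a feedback inhibitor of cytokine receptors and no member of the set, was also lowest in that library, at 215 CPM, against 307 to 513 CPM in the other 5.

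Parp9 and Parp14, ADP-ribosyltransferase genes close to each other on chromosome 16 (35832874 to 35972605), had higher fitted means in knockout. Parp14 lay at 4.76, 6.41 and 9.07 CPM in wild type and 9.34, 9.65 and 8.83 CPM in knockout. The knockout libraries lay close together, and wild-type replicate 3 fell among them (0.45 ± 0.23, edgeR adjusted p = 0.778; 0.25 without wild-type replicate 1 and 0.73 without wild-type replicate 3). Parp9 was at 12.2 ± 2.36 and 14.2 ± 1.02 CPM (0.22 ± 0.17, and 0.07 without wild-type replicate 1).

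Of the remaining members, Xaf1, whose protein opposes the apoptosis inhibitor XIAP, lay at 3.09, 3.46 and 2.35 CPM in wild type and 2.33, 1.75 and 1.85 CPM in knockout. The groups were apart by a narrow margin, and overlapped when scaled by library totals or by RLE factors (−0.58 ± 0.27, edgeR unadjusted p = 0.0607, adjusted p = 0.778). Ifi35 was at 30.4 ± 2.91 and 29.3 ± 2.502 CPM (−0.05 ± 0.13, and 0.03 without wild-type replicate 1). Ifi27l2a spread widely within both genotypes, at 2.85, 0.508 and 1.26 CPM in wild type and 2.33, 0.449 and 0.498 CPM in knockout. Its value of −0.52 ran from −1.66 without knockout replicate 1 to 0.21 without wild-type replicate 1.

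**Figure D3:**
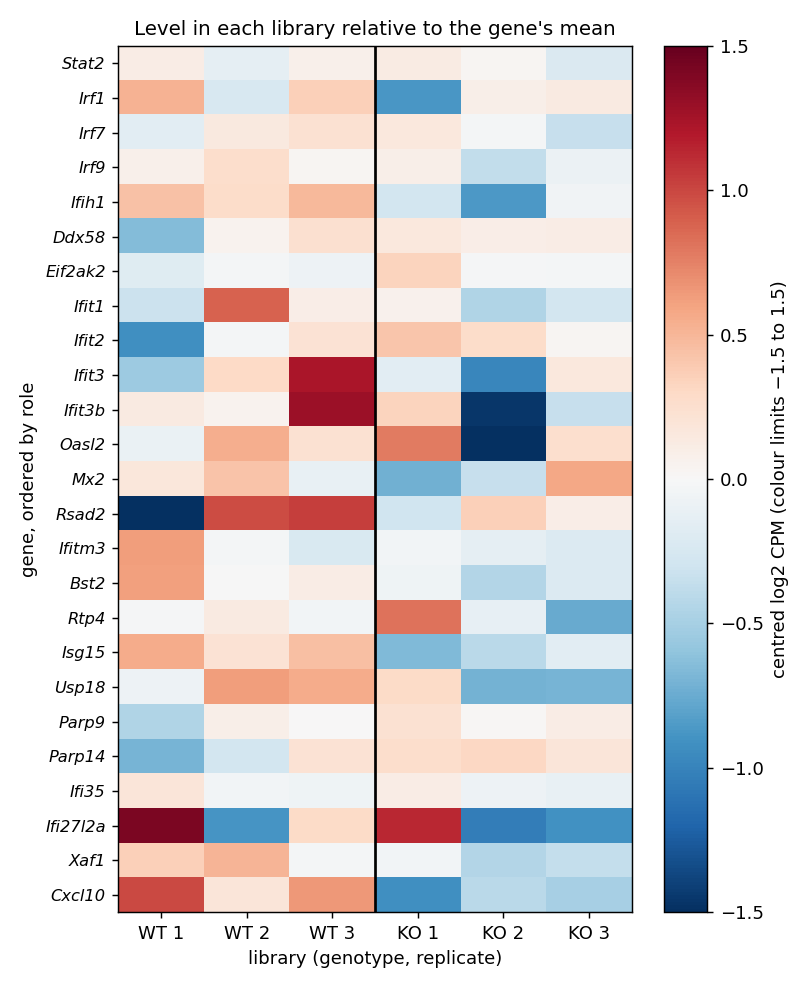
Centred log2 CPM (prior count 2) of the 25 tested genes, ordered by role, in 6 libraries: red is above and blue below the gene's own mean over the libraries, with colours limited at −1.5 and 1.5. Isg15 and Cxcl10 are red in all 3 wild-type and blue in all 3 knockout columns, while wild-type replicate 1 is blue for Rsad2, Ifit2, Ddx58 and Parp14 and red for Bst2, Ifitm3 and Irf1.

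Replicates of a genotype did not share 1 interferon level. Wild-type replicate 1 was the highest library for 7 members (Irf1, Ifitm3, Bst2, Isg15, Ifi35, Ifi27l2a and Cxcl10) and the lowest for 6 others (Ddx58, Eif2ak2, Ifit2, Rsad2, Parp9 and Parp14). Knockout replicate 2 was the lowest library for 10 members and the highest for 1. Knockout replicate 1 was the highest for 6 and the lowest for 4. The mean of centred log2 CPM over the 25 members came to −0.0042, 0.16 and 0.29 for the wild-type libraries and to 0.05, −0.35 and −0.14 for the knockout libraries. On this mean the genotypes overlapped, with knockout replicate 1 above wild-type replicate 1. Without wild-type replicate 1, 16 of 25 members had a lower fitted mean, against 48.8% of all genes, and 6 were lower at an unadjusted p under 0.05, against 3.77%. Those 6 were Cxcl10, Isg15, Ifih1, Usp18, Ifit3 and Rsad2, and again 0 members passed in edgeR's adjusted test. Without wild-type replicate 3, 5 members were lower at that level (4.15% of all genes) and 2 higher, Ifit2 and Parp14 (4.03%). Without knockout replicate 2, 2 were lower, Isg15 and Cxcl10 (2.47%), and 0 higher (1.76%).

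**Figure D4:**
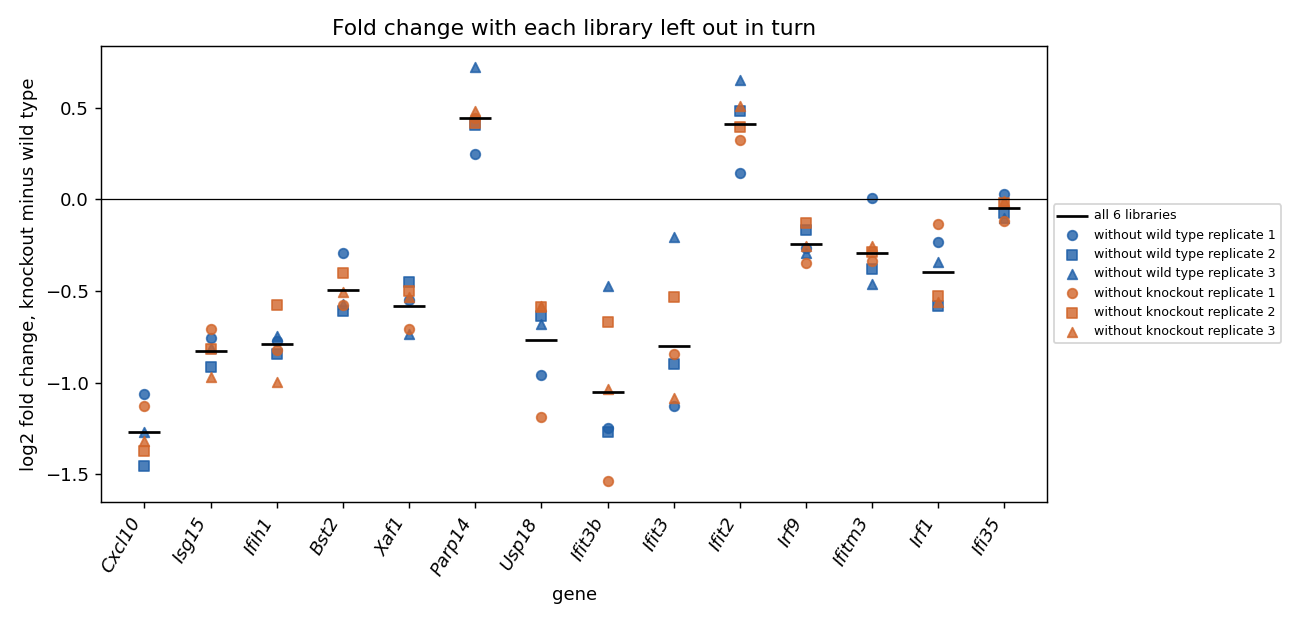
Log2 fold change, knockout minus wild type, of the 14 members described in full, from all 6 libraries (black bar) and with each library left out in turn (blue, a wild-type library left out; orange, a knockout library). Cxcl10 stays between −1.45 and −1.06 and Isg15 between −0.97 and −0.71, whereas Ifit3 runs from −1.13 to −0.20 and Ifitm3 from −0.46 to 0.0056.

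Other genes of the interferon pathway did not pass either. Of 51 pathway genes listed, 12 of them negative regulators, 39 had a row and 37 were tested. Of these 17 had a lower and 20 a higher fitted mean (median 0.03), with 0 called by edgeR and 0 by DESeq2. At an unadjusted p under 0.05, 1 was lower and 4 higher (all genes, 3.44% and 2.85%). Without overlap between the groups, 1 lay below wild type and 7 above it (all genes, 7.57% and 6.95%). The 1 was Trim25, and the 7 were Ifnar1, Ifnlr1, Jak2, Mavs, Tbk1, Irf2bp2 and Pias1. The 8 interferon ligand genes listed had no row and were not analysed here. Ifnar1 was at 25.6, 40.7 and 38.4 CPM in wild type and 42.1, 41.2 and 41.0 CPM in knockout, apart between the groups by a narrow margin, with wild-type replicate 1 the lowest library (0.24 ± 0.17). Ifnar2 was at 33.2 ± 1.46 and 33.2 ± 1.51 CPM. The gamma receptor genes Ifngr1 (0.03 ± 0.11) and Ifngr2 (−0.11 ± 0.12) were near 0. Ifnlr1, the receptor gene of lambda interferon, was at 1.03 ± 0.253 and 1.83 ± 0.145 CPM (0.83 ± 0.32, edgeR adjusted p = 0.775).

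The smallest p of the pathway genes belonged to Trim25, a ubiquitin ligase that acts on RIG-I and is itself interferon-inducible. Trim25 lay at 4.82, 3.86 and 5.32 CPM in wild type and 2.45, 2.38 and 2.598 CPM in knockout, without overlap (−0.91 ± 0.22, edgeR unadjusted p = 0.00261, adjusted p = 0.525). Mavs, the adaptor that both RNA sensors signal through, lay at 36.0, 42.0 and 40.5 CPM in wild type and 49.8, 50.6 and 48.2 CPM in knockout (0.33 ± 0.11, adjusted p = 0.775). Irf2bp2, a corepressor that binds Irf2, was at 256 ± 17.7 and 327 ± 25.2 CPM (0.36 ± 0.12), and Pias1, a SUMO ligase gene, at 101 ± 13.3 and 124 ± 5.50 CPM (0.30 ± 0.13), both without overlap.

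A second list of 52 interferon-stimulated genes outside the set gave 38 tested genes, of which 22 had a lower and 16 a higher fitted mean (median −0.10). In edgeR 0 were called, and 2 were lower and 0 higher at an unadjusted p under 0.05, near the shares of all genes (3.44% and 2.85%). The 2 were Herc6, a ubiquitin ligase gene of the Isg15 pathway (9.50 ± 2.87 and 6.66 ± 0.347 CPM, −0.52 ± 0.22), and Igtp, an interferon gamma-induced GTPase gene (3.39 ± 0.987 and 2.13 ± 0.267 CPM, −0.67 ± 0.29). Irgm1, a GTPase gene of the same family, was at 0.47 ± 0.22 and Irgm2 at −1.06 ± 0.55, opposite in sign. The groups of both overlapped (edgeR unadjusted p = 0.0662 and 0.0837).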

How the data were processed

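Bulk RNA sequencing of 6 libraries was analysed. Libraries were made with the TruSeq kit from Trizol-extracted RNA, per the labels' protocols. STAR 2.6, DESeq2 and mm10 appear in the submitters' processing notes; for the counting tool and strand setting the sources used here give nothing. The deposited values are expected counts per gene without normalization (65.4% within 0.01 of a whole number), and they were rounded here. Without a strand setting, reads of overlapping genes cannot be told apart. The deposited stop, minus 1, equalled the gene end in the RefSeq GRCm38.p6 table for 4672 genes, the stop itself for 411, so 1 was subtracted and positions are 1-based.

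Genes were kept by filterByExpr and scaled by TMM. The main test was edgeR 4.0.16 (glmQLFit and glmQLFTest, robust=TRUE, R 4.3.3), 2-sided, fitted across all genes with Benjamini-Hochberg adjustment and a threshold of 0.05. Standard errors are the fold change over the square root of F. Alternatives were DESeq2 1.42.0, limma 3.58.1 voom, other scalings and filters, a replicate block and leaving out each library. The test scripts were tested on simulated data. The members, lists and motifs were chosen with earlier results of these data known. Full values are given for the 12 members with the smallest p and the 3 with the highest CPM; per-library values of Ddx58, Rsad2, Ifi27l2a, Oas1a, Dhx58, Socs3 and the leukocyte markers were added after they were seen. Transcript lengths came from GENCODE vM1, used for sequence only.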

Additional observations from a re-analysis of the deposited data

How the results depend on the processing

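In all alternatives and with each library left out, 0 members and 0 pathway genes passed, with adjusted p-values of the 14 members described in full from 0.0508 to 0.998. The count over all genes moved from 0 in edgeR to 69 in DESeq2, and ranged from 0 to 9 with 1 library left out. The members' median log2 fold change stayed negative, from −0.34 to −0.15 with 1 library left out, nearest to 0 without wild-type replicate 2 (−0.15), then knockout replicate 2 (−0.18). Of the 14 members described in full, leaving out 1 library turned the sign of Ifitm3 (−0.46 to 0.0056) and Ifi35 (−0.12 to 0.0304), both without wild-type replicate 1; the cause was not tested. Among the other members Stat2, Ddx58, Ifi27l2a, Oasl2, Mx2 and Rtp4 turned sign with a library left out. With library totals in place of TMM, 3 members lay below wild type (5.24% of all genes) and 1 (Eif2ak2) above it (9.48%) without overlap, and 1 member, Stat2, changed sign (0.0015). With RLE factors 4 lay below (7.3%). With 1 library left out, where groups are apart more often, 5 to 11 members lay below and 0 to 3 above without overlap: 9 and 0 without wild-type replicate 1 (12.4% and 12.1% of all genes), 11 and 0 without knockout replicate 1 (10.5% and 10.4%), 6 and 3 without wild-type replicate 3 (14.6% and 13.2%) or knockout replicate 3 (12.5% and 11.6%). Without a filter on low counts, 4 members were lower at an unadjusted p under 0.05 (3.02% of all genes) and 1 (Oas1a) was higher (2.7%).

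With the replicate block, 0 genes and 0 members passed, 20 of 25 members had a lower fitted mean, and 572 genes had an unadjusted p under 0.05 instead of 955. Same-numbered libraries did not deviate together (correlations of −0.27, −0.18 and −0.08). With 3 libraries per group this cannot decide if they were paired, and the labels name no pairing. Depth limits the low members: 8 of the 25 averaged under 2 CPM, where 1 count was worth 0.035 to 0.0594 CPM.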
